A study of Mus musculus with 6 samples.

Results

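The 10 genes described here mark resident or alternatively activated macrophages and were followed in gonadal white adipose tissue (gWAT), a visceral depot next to the gonads. They were taken by NCBI gene identifier from the 19790 genes of a read count table, and all 10 were found: *Mrc1*, *Cd163*, *Lyve1*, *Folr2*, *Timd4*, *Clec10a*, *Mgl2*, *Retnla*, *Chil3* and *Arg1*. The rule that picks them uses no measured value, but the genes were chosen with earlier results of these data known. RNA-seq had been run on gWAT of wild-type C57BL/6 male mice, 3 on a normal chow diet (NCD) and 3 on a high-fat diet (HFD, 60% fat), each for 8 weeks. The labels place the start of feeding at 6 weeks of age and the methods at 8 weeks. No mouse carried a transgene or a deletion, and each library came from the whole fat pad, so it held RNA of adipocytes, vessels, mesothelium and all leukocytes. A higher level of a macrophage gene can therefore come from more macrophages or from more RNA of that gene per cell, and these cannot be told apart in such libraries.

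Macrophages of lean fat lie along vessels and carry scavenger and endocytic receptors, which clear debris, haemoglobin, modified lipoproteins and glycoproteins. Interleukin-4 and interleukin-13 act through their receptor chains and the transcription factor STAT6 to switch on the alternative programme, of which arginase, the chitinase-like protein Ym1, the resistin-like protein RELMα and the galactose-binding lectins are the textbook markers in mice. In obese fat a further macrophage state appears around dying adipocytes, marked by TREM2, CD9 and CD11c and by lipid-handling genes. Several of the 10 genes are also made by other cells: *Lyve1* by lymphatic endothelium, *Chil3* by neutrophils and monocytes, *Timd4* by peritoneal macrophages, and *Clec10a* and *Mgl2* by dendritic cells.

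The libraries held between 49575113 and 66360046 counts. Genes of the seminal vesicle (11 genes) took 58.6% of the counts of NCD replicate 1, 11.2% of replicate 2 and 2.30% of replicate 3, and 6, 8 and 2 counts on HFD. Levels are given as CPM (counts relative to the library total) after TMM scaling (TMM-scaled CPM), in which NCD replicate 1 received a scaling factor of 0.496 and the other libraries factors from 1.02 to 1.27. On that scale NCD replicate 1 had the lowest level of all 10 genes among the NCD-fed mice and a lower adipocyte signal too, with 1763 TMM-scaled CPM summed over *Adipoq*, *Plin1*, *Lep*, *Cidec* and *Pnpla2* against 6660 and 8963 in NCD replicates 2 and 3. The tests of the 10 genes are therefore given with all 6 libraries and without NCD replicate 1. The macrophage label of the tissue signal was checked on 8 general macrophage genes (*Adgre1*, *Csf1r*, *Cd68*, *Fcgr1*, *Mertk*, *Tyrobp*, *Lyz2* and *C1qa*), all of which were detected in every library, with a sum of 433 to 954 TMM-scaled CPM on NCD and 2200 to 3554 on HFD.

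The promoters of the RELMα gene *Retnla* and the Ym1 gene *Chil3* are shown because the levels of these secreted products had opposite orders among the HFD-fed mice, and because the alternative programme is defined through STAT6. The windows are the 250 bases before the annotated start (RefSeq, GRCm38.p6), at chr16:48842359-48842608 on the plus strand for *Retnla* and at chr3:106167565-106167814 on the minus strand for *Chil3*, each written 5′ to 3′ on the strand of the gene. Capitals mark matches to TTCNNNNGAA (the spacing that STAT6 prefers), TTCNNNGAA (the spacing of other STAT factors) or TTGCNNAA (a core of C/EBP sites), searched on both strands.
Retnla: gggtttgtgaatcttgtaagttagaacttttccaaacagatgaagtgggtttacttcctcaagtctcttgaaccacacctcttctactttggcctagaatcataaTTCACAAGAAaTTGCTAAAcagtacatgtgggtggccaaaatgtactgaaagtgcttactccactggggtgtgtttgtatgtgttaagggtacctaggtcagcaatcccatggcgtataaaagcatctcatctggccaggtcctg
Chil3: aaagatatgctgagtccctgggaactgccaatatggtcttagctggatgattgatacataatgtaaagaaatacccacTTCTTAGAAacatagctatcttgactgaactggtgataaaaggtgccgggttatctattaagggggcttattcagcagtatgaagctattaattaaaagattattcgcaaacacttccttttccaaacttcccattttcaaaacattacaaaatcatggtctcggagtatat
The *Retnla* window held TTCACAAGAA, a match to the STAT6 motif from 145 to 136 bases before the start, and beside it TTGCTAAA, a match to the C/EBP motif from 134 to 127 bases before the start. The *Chil3* window held no match to the STAT6 motif and 1 match to the other STAT spacing, TTCTTAGAA, from 172 to 164 bases before the start. Among 32851 promoter windows of the same length, 5.85% held the STAT6 motif, 7.02% the other STAT motif and 9.56% the C/EBP motif. Windows were matched for 7 of the 10 genes, all but *Lyve1*, *Clec10a* and *Arg1*. In those of *Cd163*, *Folr2*, *Timd4* and *Mgl2* none of these motifs was found, nor AGAGGAAG, a core of sites of the myeloid factor PU.1 that 3.67% of all windows held, while *Mrc1* held a PU.1 match on the minus strand, from 36 to 29 bases before the start. The *Mgl2* window, chr11:70130107-70130356, lies mostly inside the gene, which begins at 70130125. It therefore says little about the bases upstream of *Mgl2*. *Folr2* had a further window that lies inside that gene. All motif matches are letters in a window and were not tested as sites.

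Of the 5 scavenger and endocytic receptors, *Folr2* rose on HFD, *Mrc1* was higher in every HFD-fed mouse, and *Cd163*, *Lyve1* and *Timd4* overlapped between the diets. *Folr2*, the folate receptor β of tissue macrophages, measured 17.7, 35.4 and 35.4 TMM-scaled CPM in replicates 1, 2 and 3 on NCD and 110, 99.7 and 93.4 on HFD. Its mean was 29.5 ± 10.2 (SD, n = 3) on NCD and 101 ± 8.64 (SD, n = 3) on HFD. The lowest value on HFD exceeded the highest on NCD, and the 3 HFD values were close to each other. In edgeR, whose p-values were adjusted for all tested genes and whose standard errors are given as SE, the log2 fold change was 1.78 (SE 0.294, edgeR adjusted p = 0.0277), a 3.43-fold rise, and 1.53 (SE 0.122, edgeR adjusted p = 0.00544) without NCD replicate 1. Leaving out 1 of the other 5 mice in turn gave adjusted p-values of 0.0706 to 0.110 in edgeR, and *Folr2* was then not called.

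*Mrc1* encodes CD206, the mannose receptor with which the flow cytometry of the study marked M2-like macrophages. Its level was 44.2, 126 and 109 on NCD and 299.5, 303 and 487 on HFD, in TMM-scaled CPM of replicates 1, 2 and 3. All 3 HFD-fed mice lay above all 3 NCD-fed mice. The log2 fold change of 1.96 (SE 0.446) missed the threshold with all libraries (edgeR adjusted p = 0.0525) and passed it without NCD replicate 1, at 1.64 (SE 0.279, edgeR adjusted p = 0.0159).

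*Cd163*, the receptor for haemoglobin bound to haptoglobin, stood at 16.4, 47.5 and 35.7 TMM-scaled CPM on NCD and 28.9, 27.2 and 39.0 on HFD in replicates 1, 2 and 3. The HFD values lay inside the NCD range. EdgeR gave *Cd163* a log2 fold change of -0.07 (SE 0.392, edgeR adjusted p = 0.921), and -0.38 (SE 0.213, edgeR adjusted p = 0.254) without NCD replicate 1.

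*Lyve1*, a hyaluronan receptor of perivascular macrophages and of lymphatic vessels, was at 19.2, 32.4 and 48.0 TMM-scaled CPM on NCD and 23.5, 72.3 and 16.5 on HFD in replicates 1, 2 and 3. HFD replicate 2 was the highest and HFD replicate 3 the lowest of all 6 libraries. Its log2 fold change of 0.17 was below its SE of 0.622 (edgeR adjusted p = 0.871), and without NCD replicate 1 it was -0.09 (edgeR adjusted p = 0.933). Beside it, 5 other lymphatic genes summed to 38.2 to 84.4 TMM-scaled CPM on NCD and 56.0 to 133 on HFD. Most of that sum on HFD was *Pdpn*, which mesothelium and fibroblasts also express, while the lymphatic regulator *Prox1* had 47, 21 and 3 counts on NCD and 15, 0 and 8 on HFD. The 5 mesothelial genes were also highest in HFD replicate 2, at 489 TMM-scaled CPM in sum against 87.9 to 213 in the other libraries. The part of lymphatic or mesothelial cells in the *Lyve1* level was not tested.

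*Timd4*, the phosphatidylserine receptor TIM-4 of long-lived resident macrophages, was the least abundant of the 10 genes per kilobase on HFD. It measured 1.77, 6.42 and 5.88 TMM-scaled CPM on NCD and 2.05, 3.57 and 1.77 on HFD in replicates 1, 2 and 3. NCD replicate 1 was as low as the HFD-fed mice, and the other NCD-fed mice lay above all of them. For *Timd4* the log2 fold change was -0.93 (SE 0.557, edgeR adjusted p = 0.308) and, without NCD replicate 1, -1.30 (SE 0.352, edgeR adjusted p = 0.0515). Another peritoneal macrophage gene, the transcription factor *Gata6*, measured 5.69, 17.5 and 22.5 TMM-scaled CPM on NCD and 10.3, 28.4 and 20 on HFD, and mesothelium expresses it as well.

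Of the 2 galactose-type lectins, *Clec10a* was higher in every HFD-fed mouse and *Mgl2* overlapped between the diets. *Clec10a* (CD301a) and *Mgl2* (CD301b) are neighbouring genes on chromosome 11, at positions 70166623 to 70170836 and 70130125 to 70137542 (GRCm38.p6), and their products bind galactose and N-acetylgalactosamine. *Clec10a* was at 18.4, 44.5 and 52.9 TMM-scaled CPM on NCD and at 154, 96.9 and 126 on HFD, whereas *Mgl2* was at 9.80, 25.6 and 24.8 on NCD and at 28.6, 11.1 and 9.90 on HFD. Every HFD-fed mouse exceeded every NCD-fed mouse in *Clec10a*, and in *Mgl2* only HFD replicate 1 did. The log2 fold change of *Clec10a* was 1.70 (SE 0.418, edgeR adjusted p = 0.0610) and, without NCD replicate 1, 1.38 (SE 0.227, edgeR adjusted p = 0.0149). That of *Mgl2* was -0.28 (SE 0.546, edgeR adjusted p = 0.755) and -0.60 (SE 0.472, edgeR adjusted p = 0.403). Within each library, *Clec10a* had 1.87, 1.74 and 2.13 counts per count of *Mgl2* on NCD and 5.39, 8.71 and 12.7 on HFD. The log2 of that ratio differed by 2.14 between the diets without overlap (exact two-sided permutation p = 0.1, the smallest that 3 mice against 3 allow), and by 2.12 without NCD replicate 1. The ratio is no separate test of the levels of *Clec10a* and *Mgl2*. Their transcripts are alike in part: 8.49% of the 50-base stretches of *Clec10a* also occur in *Mgl2*, so reads from those stretches could be counted on either gene.

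Among the 3 genes of secreted or enzyme products, *Arg1* and *Chil3* were higher in every HFD-fed mouse with a wide spread, and *Retnla* was low in 2 of the 3 HFD-fed mice. *Arg1*, the arginase that turns arginine into ornithine and urea, had 12, 222 and 505 counts in NCD replicates 1, 2 and 3 and 735, 13211 and 18080 in HFD replicates 1, 2 and 3. As TMM-scaled CPM these were 0.365, 3.71 and 9.40 on NCD and 12.7, 158 and 288 on HFD. The lowest HFD-fed mouse was only just above the highest NCD-fed mouse, and the HFD values ranged over 22.6-fold. A log2 fold change of 5.08 (SE 1.5, edgeR adjusted p = 0.0887) did not pass, nor did that of 4.57 without NCD replicate 1 (edgeR adjusted p = 0.0695).

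*Chil3*, which encodes the chitinase-like lectin Ym1, was at 3.81, 23.4 and 9.69 TMM-scaled CPM on NCD and at 31.3, 90.3 and 206 on HFD in replicates 1, 2 and 3. The diets did not overlap, and HFD replicate 3 was the highest and HFD replicate 1 the lowest of the HFD-fed mice, as for *Arg1*. Its log2 fold change was 3.15 (SE 0.917, edgeR adjusted p = 0.0860), and 2.74 (edgeR adjusted p = 0.0792) without NCD replicate 1. In the paralog *Chil4*, which shares 16.9% of the 50-base stretches of *Chil3*, there were 0, 22 and 5 counts on NCD and 28, 0 and 0 on HFD.

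*Retnla*, the gene of the cysteine-rich secreted protein RELMα, stood at 51.9, 139 and 144 TMM-scaled CPM on NCD and at 127, 33.7 and 14.8 on HFD in replicates 1, 2 and 3. HFD replicate 1 was within the NCD range, and the other HFD-fed mice were below every NCD-fed mouse. The fold change of *Retnla* was -0.93 on the log2 scale (SE 0.821, edgeR adjusted p = 0.474), and -1.27 (SE 0.824, edgeR adjusted p = 0.315) without NCD replicate 1. It was -2.20 without HFD replicate 1 (edgeR adjusted p = 0.144) and -0.46 without HFD replicate 3 (edgeR adjusted p = 0.747). Counted against each other within a library, *Retnla* had 142, 37.5 and 15.3 counts per count of *Arg1* on NCD and 9.96, 0.213 and 0.0513 on HFD. It had 13.6, 5.96 and 14.8 counts per count of *Chil3* on NCD and 4.06, 0.374 and 0.0717 on HFD. The ratios did not overlap between the diets in either case (exact two-sided permutation p = 0.1 for each, the smallest possible), although the level of *Retnla* itself did. Each pair sets *Retnla* against a gene that was higher in every HFD-fed mouse, so neither ratio is a separate test. The ratio of *Arg1* to *Chil3* overlapped between the diets (exact two-sided permutation p = 0.2).

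**Figure D1:**
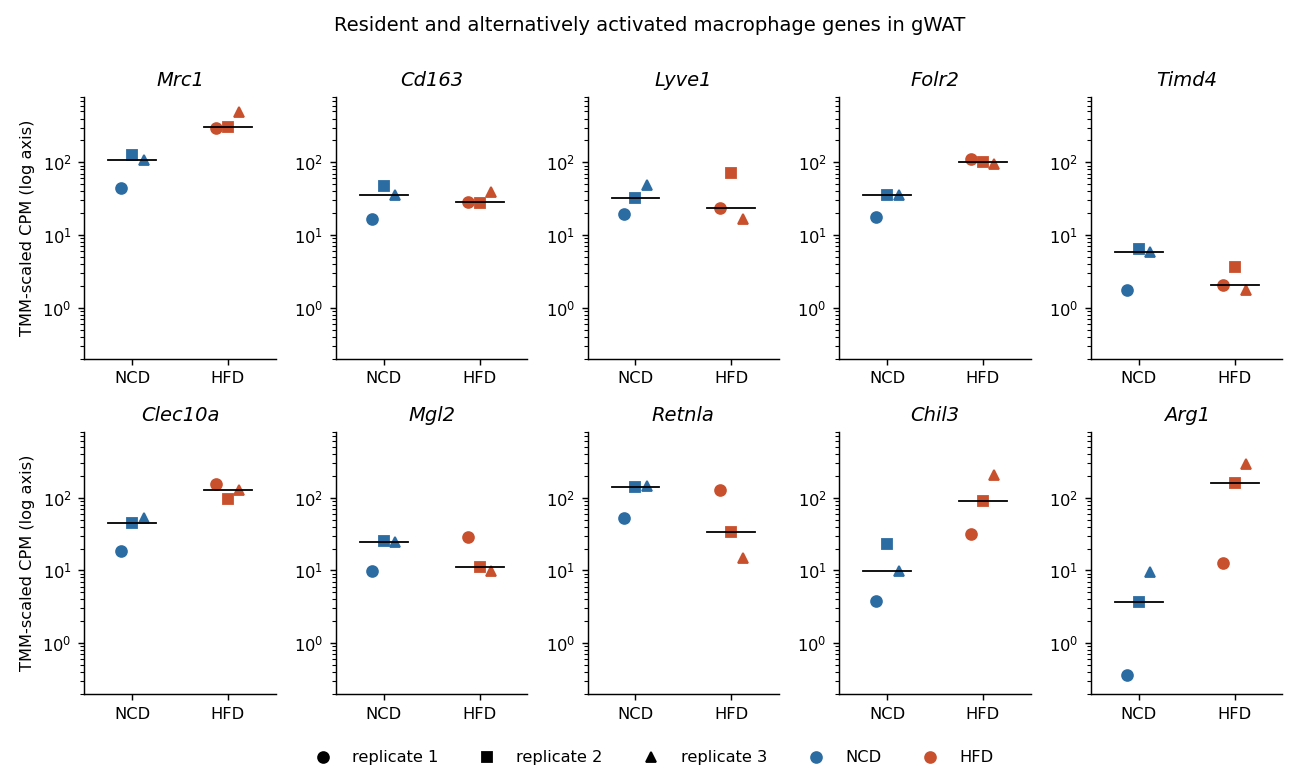
Level of each of the 10 genes in TMM-scaled CPM (log axis) in every mouse, with the mouse's diet by colour and its replicate number by marker. *Folr2*, *Mrc1*, *Clec10a*, *Chil3* and *Arg1* do not overlap between NCD and HFD, and *Arg1* ranges from 12.7 to 288 among the HFD-fed mice.

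With all 6 libraries, 1 of the 10 genes passed an adjusted p under 0.05 in edgeR as higher on HFD and 0 as lower, where 5.58% of the 15241 tested genes passed as higher and 1.90% as lower. At an unadjusted p under 0.05, edgeR had 5 of the 10 genes, all higher on HFD, and 4524 of all genes. DESeq2 called 5 of the 10 genes, all higher, where it called 14.2% of the genes with an adjusted p as higher and 11.5% as lower. Without NCD replicate 1, edgeR called 3 genes as higher (*Mrc1*, *Folr2* and *Clec10a*) and 0 as lower, against 10.7% and 10.1% of all tested genes. The levels of 5 genes did not overlap between the diets, all higher on HFD, where 20.5% of all tested genes were higher and 18.7% lower without overlap. All 10 genes passed the filter on low counts, so every one was tested. The median log2 fold change of the 10 genes was 0.94 beside -0.08 over all tested genes, and 0.65 beside 0.02 without NCD replicate 1.

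When NCD replicate 1 was kept but weighted by its quality in limma's voom (weight 0.134, the lowest of the 6), 8 of the 10 genes passed. This fit also leaned on 1 mouse of each diet, with weights of 3.34 for NCD replicate 2 and 2.99 for HFD replicate 2. The remaining weights were 1.05 for NCD replicate 3, and 0.695 and 1.03 for HFD replicates 1 and 3. Of the 8 genes, 5 were higher on HFD (*Mrc1*, *Folr2*, *Clec10a*, *Chil3* and *Arg1*, adjusted p of limma from 0.00126 to 0.0215) and 3 lower (*Timd4*, *Mgl2* and *Retnla*, adjusted p of limma from 0.0293 to 0.0317). In that fit 18.5% of all tested genes were called higher and 18.0% lower. The 3 genes called lower there had log2 fold changes of -1.08 for *Timd4*, -1.02 for *Mgl2* and -1.99 for *Retnla*. With NCD replicate 1 left out of the weighted fit, their log2 fold changes were -1.07, -1.02 and -2.03, of like size, and none passed (adjusted p of limma 0.0515, 0.0567 and 0.0593). The calls were then the 4 higher genes *Mrc1*, *Folr2*, *Clec10a* and *Chil3*, where 12.8% of all tested genes were called higher and 13% lower. DESeq2 without that library called *Timd4* as lower (-1.31, DESeq2 adjusted p = 0.00563) and *Mrc1*, *Folr2*, *Clec10a*, *Chil3* and *Arg1* as higher, where it called 16.7% of all genes with an adjusted p as lower and 18.1% as higher.

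**Figure D2:**
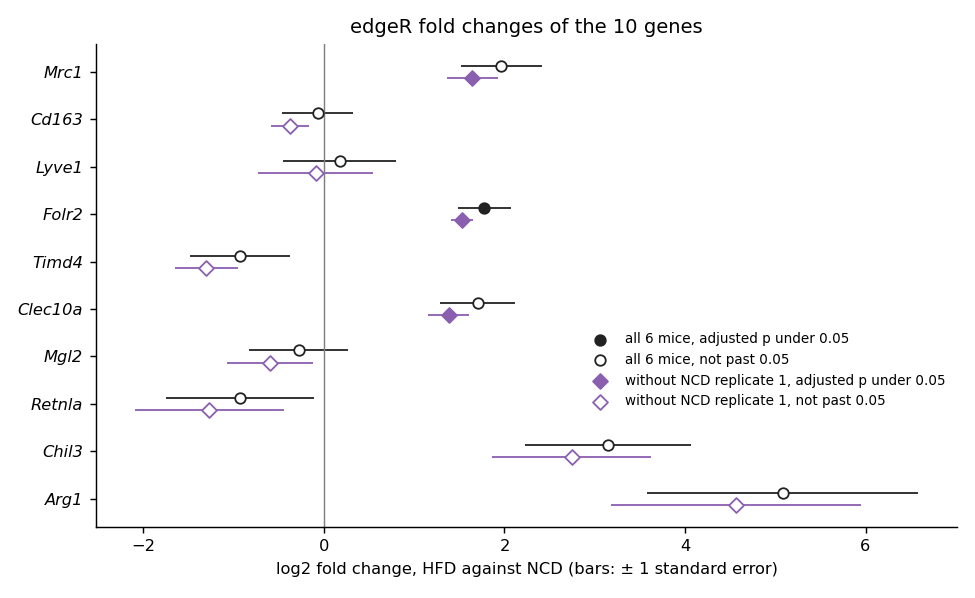
Log2 fold change (HFD over NCD) of each of the 10 genes with its standard error as a bar, from edgeR with all 6 libraries and from edgeR without NCD replicate 1. *Folr2*, *Mrc1*, *Clec10a*, *Chil3* and *Arg1* lie to the right of 0 by more than their bars in each fit. *Timd4* and *Retnla* lie to the left by more than theirs, and *Lyve1* lies within its SE of 0 in each. *Cd163* moves from -0.07 with all libraries to -0.38 (SE 0.213) without NCD replicate 1. In weighted voom, which is not drawn, *Cd163* was at -0.55 (SE 0.207).

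The 10 genes were then set against the 8 general macrophage genes of the same library, as the log2 of the level of a gene minus the mean log2 level of those 8 genes. The ratio was taken on unscaled CPM with 0.1 added, so scaling of the libraries bears on it only through that pseudocount, at low counts. Relative to these genes, *Mrc1*, *Folr2* and *Clec10a* overlapped between the diets, with differences (HFD minus NCD) of -0.06, -0.28 and -0.31 (exact two-sided permutation p = 0.9, 0.2 and 0.2). For *Mrc1* the log2 ratios were 0.23, 0.67 and 0.72 on NCD and 0.02, 0.52 and 0.91 on HFD. *Cd163*, *Lyve1*, *Timd4*, *Mgl2* and *Retnla* were lower in every HFD-fed mouse, with differences of -2.08, -2.15, -2.92, -2.45 and -3.46 on the log2 scale (exact two-sided permutation p = 0.1 for each, the smallest possible, and 0.2 adjusted over the 10 genes). *Chil3* and *Arg1* had differences of 0.99 and 2.82 and overlapped (exact two-sided permutation p = 0.3 for each), and with a pseudocount of 1 that of *Arg1* was 2.06. Of the 8 general genes, 7 were themselves higher on HFD without overlap. The exception, *Mertk*, was at 42.0, 55.1 and 71.9 TMM-scaled CPM on NCD and at 73.8, 53.5 and 71.4 on HFD. Its log2 fold change was 0.23 (SE 0.242, edgeR adjusted p = 0.545). On this ratio 88.3% of all tested genes were lower on HFD without overlap and 0.846% higher, so that 5 of 10 genes lower is no more than the tissue as a whole showed.

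The sign for *Mrc1*, *Folr2* and *Clec10a* depended on the reference gene. With *Adgre1* (F4/80) alone as the reference, the differences of *Mrc1*, *Folr2* and *Clec10a* were -0.80, -1.02 and -1.05, and with *Csf1r* alone they were 0.41, 0.18 and 0.16. *Adgre1* itself measured 25.5, 57.2 and 36.2 TMM-scaled CPM on NCD and 418, 211 and 233 on HFD, and *Csf1r*, the receptor for the macrophage growth factor CSF1, 61.5, 136 and 107 on NCD and 424, 237 and 278 on HFD.

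**Figure D3:**
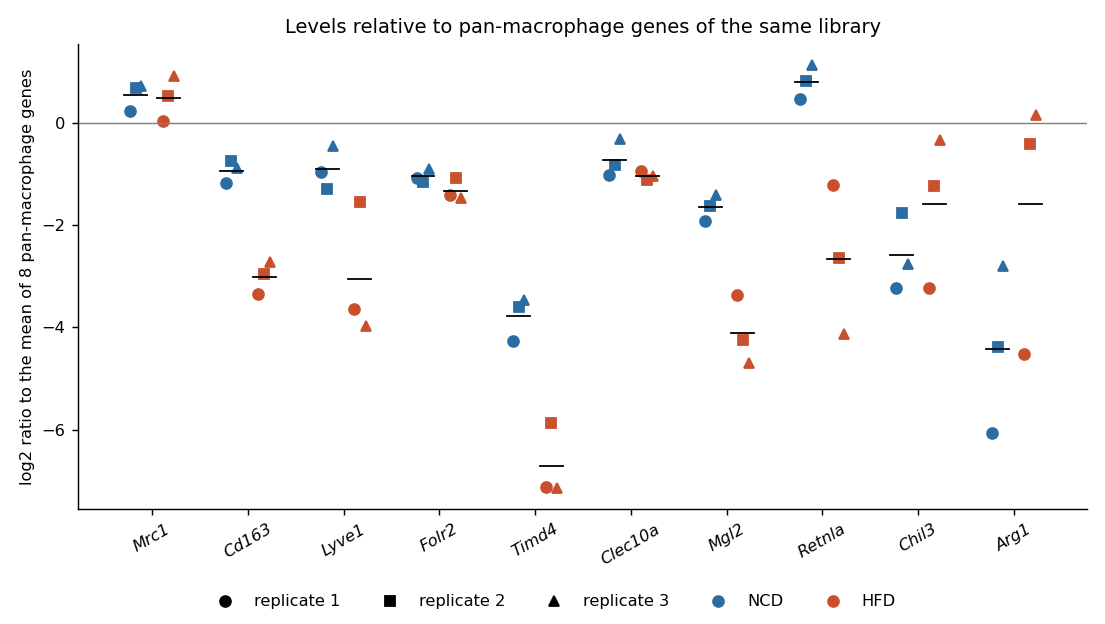
Log2 ratio of each of the 10 genes to the mean of 8 general macrophage genes in every mouse, by diet and replicate. *Mrc1*, *Folr2* and *Clec10a* overlap between the diets, and *Retnla*, *Timd4*, *Mgl2*, *Lyve1* and *Cd163* are lower in all 3 HFD-fed mice.

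The study's flow cytometry split macrophages by CD206 and CD11c, so *Mrc1* was compared with *Itgax*, the CD11c gene. *Itgax* was at 13.9, 11 and 7.18 TMM-scaled CPM on NCD and at 169, 36.0 and 43.1 on HFD. The log2 ratio of *Mrc1* to *Itgax* was 1.66, 3.51 and 3.90 on NCD and 0.82, 3.07 and 3.50 on HFD. The diets overlapped, with a difference (HFD minus NCD) of -0.56 (exact two-sided permutation p = 0.5), and -1.25 without NCD replicate 1. HFD replicate 1 had the lowest ratio of all, and without it the difference was 0.26. Of the 5 flow cytometry genes, *Ptprc* (CD45), *Itgam* (CD11b) and *Fcgr1* (CD64) passed as higher on HFD in edgeR, with log2 fold changes of 1.36, 2.64 and 3.16, and *Itgax* and *Mrc1* passed in edgeR when NCD replicate 1 was left out, and in weighted voom with all libraries (adjusted p of limma 0.0182 and 0.00474).

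Levels of different genes were compared per kilobase of exon, as TMM-scaled CPM per kilobase. On NCD *Retnla* was the most abundant by a wide margin, at 187 ± 86.6 (SD, n = 3), and did not overlap with *Folr2*, the next, at 22.4 ± 7.74. Below it came *Mrc1* at 17.3, *Clec10a* at 15.4, *Mgl2* at 11.6, *Lyve1* at 11.5, *Chil3* at 7.99, *Cd163* at 7.40, *Arg1* at 3.04 and *Timd4* at 2.16, and each of these overlapped with its neighbours in the order. On HFD the order of mean levels per kilobase was *Arg1* at 104, *Retnla* at 97.6, *Folr2* at 76.6, *Chil3* at 71.0, *Mrc1* at 67.6 and *Clec10a* at 50.3, all overlapping with their neighbours. Next came *Lyve1* at 12.9, *Mgl2* at 9.55 and *Cd163* at 7.06, which did not overlap with *Clec10a*. They did overlap with *Arg1*, whose SD was 93.3 (n = 3) and whose level in HFD replicate 1 was 8.63. *Lyve1* also overlapped with *Retnla* and *Chil3*. All values of *Timd4*, with a mean of 1.13, lay below those of the other genes on HFD.

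The interleukin-4 and interleukin-13 pathway was read from a list of 20 genes, of which 18 had enough counts to test. The list also holds *Il10*, *Il10ra*, *Il33* and *Il1rl1*, which are ligands or receptor chains of other cytokines. Of the 18 genes, 4 rose on HFD in edgeR, *Il10ra* among them, and none fell. Over all tested genes 5.58% passed as higher and 1.90% as lower, and these shares apply to the lists that follow as well. *Stat6* was at 109, 110 and 109 TMM-scaled CPM on NCD and at 194, 184 and 175 on HFD, and its difference on the log2 scale was 0.75 (SE 0.137, edgeR adjusted p = 0.0339). The others were *Il2rg*, the common γ chain of the receptors, at 1.67, *Klf4*, a transcription factor that acts with STAT6, at 0.90, and *Il10ra*, a chain of the interleukin-10 receptor, at 1.99. *Il4ra*, the chain that binds interleukin-4, measured 18.8, 42.7 and 52.0 TMM-scaled CPM on NCD and 74.0, 226 and 414 on HFD without overlap, and its log2 fold change of 2.65 did not pass (edgeR adjusted p = 0.0705). The ligands themselves were barely detected, with 0, 3 and 0 counts of *Il4* on NCD and 2, 4 and 2 on HFD, and 0, 0 and 3 counts of *Il13* on NCD and 9, 13 and 8 on HFD. Without NCD replicate 1, 6 of the 18 genes passed as higher and 2 as lower, the lower ones being *Pparg* (-1.11), which adipocytes also express, and *Kdm6b* (-0.63), a histone demethylase. In that fit 10.7% of all tested genes passed as higher and 10.1% as lower, so the count of lower genes is near the share over all genes.

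Of 14 other resident macrophage genes, 0 passed in edgeR with all libraries, with 3 higher and 0 lower at an unadjusted p under 0.05, and weighted voom called 4 as higher and 1 as lower. Without NCD replicate 1, *Pf4* (1.73), a platelet-type chemokine, and *Stab1* (1.25) passed in edgeR as higher and the C-type lectin *Cd209b* (-1.05) as lower. *Stab1*, a scavenger receptor, was at 47.6, 103 and 104 TMM-scaled CPM on NCD and at 195, 246 and 293 on HFD. The median log2 fold change of the 14 genes was 0.50, and 0.25 without NCD replicate 1.

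Of 14 other alternative activation genes, 11 were tested and 2 rose, the chemokine *Ccl22* (log2 fold change 2.1, edgeR adjusted p = 0.0447) and the transcription factor *Egr2* (3.17, edgeR adjusted p = 0.0477). The median of this list was 1.54. Of 10 classical activation genes, 3 rose: *Tnf* (2.44), the co-stimulatory molecule *Cd86* (1.20) and the transcription factor *Irf5* (2.30). Their median was 1.75. *Nos2*, the nitric oxide synthase that competes with arginase for arginine, was at 2.74, 14.0 and 14.9 TMM-scaled CPM on NCD and at 10.9, 8.80 and 9.21 on HFD. *Arg1* had 0.133, 0.266 and 0.629 counts per count of *Nos2* on NCD and 1.17, 18.0 and 31.3 on HFD, without overlap (exact two-sided permutation p = 0.1, the smallest possible). *Arg1* itself was higher in every HFD-fed mouse, so this ratio is no separate test.

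Of 8 lipid-associated macrophage genes, 5 rose (*Trem2*, *Spp1*, *Gpnmb*, *Lgals3* and *Atp6v0d2*), with a median log2 fold change of 3.51 for the list. *Trem2*, the lipid-sensing receptor that defines these cells, was at 4.38, 9.73 and 9.14 TMM-scaled CPM on NCD and at 167, 58.1 and 73.2 on HFD (log2 fold change 3.68, SE 0.541, edgeR adjusted p = 0.0235). HFD replicate 1, which had the lowest *Arg1* and *Chil3* and the highest *Retnla*, *Mgl2* and *Clec10a* among the HFD-fed mice, was the highest in *Trem2*, *Gpnmb* and *Itgax*. Among the HFD-fed mice it was also the highest in *Cd9*, *Lgals3*, *Atp6v0d2* and *Fabp5*. *Spp1* went the other way, at 57.1, 695 and 1171 TMM-scaled CPM in HFD replicates 1, 2 and 3. Of the 8 general macrophage genes, 5 rose, with a median of 2.16. With all libraries, no gene of these 6 lists fell in edgeR.

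**Figure D4:**
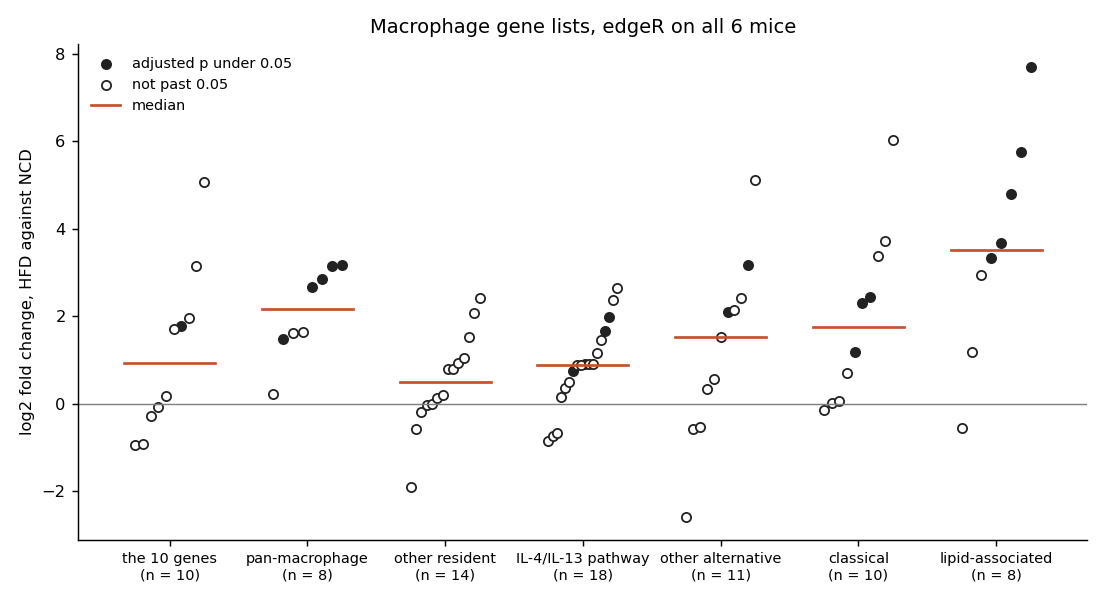
Log2 fold change (HFD over NCD, edgeR, all 6 libraries) of every tested gene of the lists, 1 point a gene, with the median of each list and filled points for genes past an adjusted p of 0.05. Of the macrophage lists drawn, the lipid-associated list has the highest median, 3.51, and the median of the 10 genes is 0.94.

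Genes of other myeloid cells were read beside *Arg1* and *Chil3*. The 6 neutrophil genes (*S100a8*, *S100a9*, *Ly6g*, *Csf3r*, *Cxcr2* and *Retnlg*) summed to 4.2, 9.55 and 6.44 TMM-scaled CPM on NCD and to 20.3, 154 and 419 on HFD in replicates 1, 2 and 3. Of the 4 that could be tested, only *Csf3r*, the receptor of a granulocyte growth factor, passed in edgeR (3.71, edgeR adjusted p = 0.0495). The defining marker *Ly6g* had 0 counts in the NCD-fed mice and 0, 7 and 11 in HFD replicates 1, 2 and 3. The 3 monocyte genes other than *Chil3* (*Ly6c2*, *Ccr2* and *Plac8*) summed to 134, 176 and 104 on NCD and to 238, 482 and 764 on HFD, and of these *Ccr2* passed (2.34, edgeR adjusted p = 0.0471). HFD replicate 3 was the highest and HFD replicate 1 the lowest of the HFD-fed mice in both sums, as in *Arg1* and *Chil3*, and the order was opposite in *Retnla*. That order on HFD was not particular to these genes. *Mrc1*, *Fcgr1*, *Stab1*, *Il4ra* and *Spp1* had it too, while *Adgre1* and *Csf1r* did not. On NCD, *Chil3* had the order of the neutrophil sum, but *Arg1* was highest in replicate 3, where the monocyte sum was lowest. The part of neutrophils and monocytes in the levels of *Arg1*, *Chil3* and *Retnla* was not tested.

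**Figure D5:**
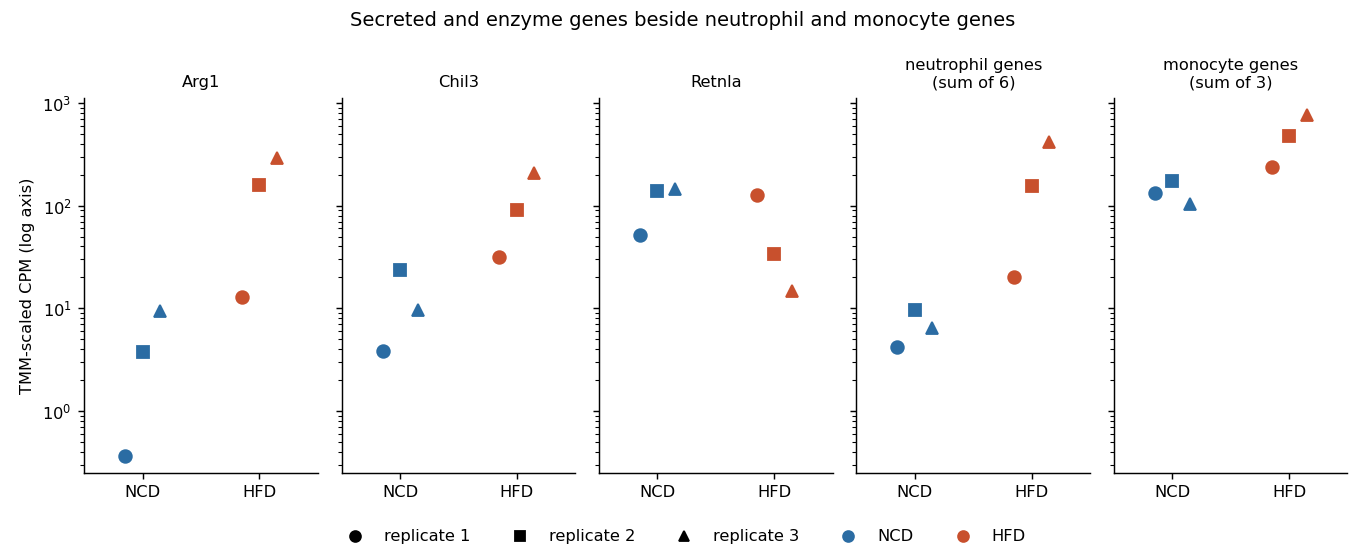
Levels of *Arg1*, *Chil3* and *Retnla* and the sums of 6 neutrophil and 3 monocyte genes in TMM-scaled CPM (log axis) in each mouse, by diet and replicate. On HFD, replicate 3 is the highest and replicate 1 the lowest in *Arg1* (12.7 to 288), *Chil3* and both sums, and *Retnla* has the opposite order.

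Dendritic cell genes, which bear on the lectins, summed to 24.1 to 30.1 TMM-scaled CPM on NCD and to 26.1 to 35.6 on HFD, and 0 of the 7 passed in edgeR, with 2 higher and 1 lower at an unadjusted p under 0.05 and the same counts past the threshold in weighted voom. The genes most like 3 of the 10 across the 6 libraries were found by Pearson's r of log2 level among 9885 genes, as a description. For *Clec10a* they were *Slc8b1* (r = 0.999), *Lasp1* (0.998) and the lysosomal protease *Ctsb* (0.997). For *Retnla* they were *Pcdh7* (0.992), *Dock1* (0.990) and *Asap2* (0.990), and for *Lyve1* they were *Tppp* (0.909), *Kif13a* (0.889) and *Rspo1* (0.883). All points share the 6 libraries and their scaling, and NCD replicate 1 weighs on each r.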

How the data were processed

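The authors deposited raw read counts per gene, 1 column per mouse, for 19790 NCBI gene identifiers, and nothing was normalized. The submitters' processing notes name bcl2fastq 2.20.0, Trimmomatic, HISAT2 2.1.0, StringTie 1.3.4d and DESeq2, and the builds mm10 and GRCm38, without giving a role or order. The labels name a stranded TruSeq mRNA kit. How reads shared by paralogs were handled: not given in the sources used here. No column was left without a sample (0), and the column of HFD replicate 3 carries the number 4 in its name.

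Symbols were taken from NCBI's annotation of GRCm38.p6 for 19742 identifiers. The other 48 held 0.629% of the counts, and stayed in the library totals and the fit. Exon lengths came from GENCODE vM21, and promoter sequences from RefSeq. EdgeR 4.0.16 in R 4.3.3 kept 15241 genes with filterByExpr, at a count of at least 10 and a total of at least 15. After TMM scaling, its quasi-likelihood test (glmQLFit, glmQLFTest) compared HFD with NCD, p-values were adjusted by Benjamini and Hochberg's method over the genes kept, and 0.05 was the threshold. Standard errors (SE) are the size of the log2 fold change over the root of F. Ratios within a library were taken on log2(CPM + 0.1) and compared with exact two-sided permutation tests, for which 3 against 3 cannot go below p = 0.1. Among ratios between single genes, only that of *Mrc1* to *Itgax*, with *Cd9* as the alternative, was planned. Levels per kilobase divide by exon length. Alternatives were no filter, median-of-ratios scaling, total counts, TMM without the 11 seminal vesicle genes, DESeq2 1.42.0, limma 3.58.1 voom with sample weights, the replicate number as a block, other reference genes and each mouse left out. DESeq2 and weighted voom without NCD replicate 1 were chosen after seeing the data. The edgeR procedure was tested on simulated counts with known changes, of which it called 67.7% of the 4-fold and 11.3% of the 2-fold ones. A gene that did not pass can therefore still differ between the diets.

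The genes and lists were chosen with earlier results of these data known. The 10 genes are given in full, and list genes are named where they pass the threshold or bear on one of the 10. The most alike genes are the 3 of highest r with a mean of at least 10 TMM-scaled CPM, for 1 gene of each role. Replicates are described as biological and differed by far more than sampling noise. Their numbers do not pair mice across the diets (r of same-numbered deviations between -0.0565 and 0.00965). Some genes of the lists are not reported here, and the list counts and sums leave them out.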

Additional observations from a re-analysis of the deposited data

How the results depend on the processing

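The calls depended on the libraries and the tool. Of the 10 genes, 1 was called with all libraries in edgeR, 0 under total counts, 5 with DESeq2, 8 with weighted voom, and 0 to 3 with a mouse left out. Fits chosen after seeing the data, without NCD replicate 1, called 4 with weighted voom, all higher, and 6 with DESeq2, 5 higher and 1 lower (*Timd4*). Over all genes, against 1139 calls, DESeq2 gave 3904 (55.1% higher), weighted voom 5570 (50.7% higher) and the left-out mice 2 to 3234, and the added fits 4002 and 5393, where the main share of higher calls was 74.6%. Over the gene lists, against 19 calls, DESeq2 gave 34, weighted voom 40, the left-out mice 0 to 31, and the added fits 32 and 48.

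With the replicate number as a block, which the numbers do not support as a pairing, 12 genes were called, 1 of the 10 (*Arg1*) and 0 of the lists. Signs turned for *Cd163* under total counts (0.30) and the block (0.046), and over the left-out mice it ranged from -0.38 to 0.28. *Lyve1* turned under the block (-0.0069) and in DESeq2 without NCD replicate 1 (-0.10), and ranged from -0.72 to 0.55 over the left-out mice. *Mgl2* turned under total counts (0.050), under which the median over all genes was 0.45 and not -0.08. Over the left-out mice, *Retnla* ranged from -2.20 to -0.46, *Mgl2* from -0.93 to -0.0028, *Timd4* from -1.30 to -0.64, *Chil3* from 2.31 to 4.01 and *Arg1* from 4.24 to 6.20, and none of these 5 was called. The log2 ratio of *Mrc1* to *Cd9* in place of *Itgax* differed by 1.94 (exact permutation p = 0.3), and *Cd9* was highest in NCD replicate 1, at 359 TMM-scaled CPM. The cause of these changes was not tested. Depth limits *Il4* and *Il13*, which were not tested, and the spread between mice limits *Arg1*, *Chil3* and *Retnla*.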

Other observations

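Of the genes of arginine use, none of the 8 tested (*Arg2*, *Nos2*, *Odc1*, *Oat*, *Ass1*, *Asl*, *Slc7a1* and *Slc7a2*) passed in edgeR with all libraries, 0 had an unadjusted p under 0.05, and weighted voom of limma called 1 as lower. Their median log2 fold change was -0.32 with all libraries, 0.025 without NCD replicate 1 and 0.039 in weighted voom. The arginine carrier *Slc7a2* was lower in every HFD-fed mouse, at 5.08, 7.53 and 7.95 TMM-scaled CPM on NCD and 4.37, 4.78 and 4.61 on HFD, and it passed as lower without NCD replicate 1 (-0.74, edgeR adjusted p = 0.0372). *Odc1*, which carries ornithine into polyamine synthesis, was at 171, 117 and 96.6 on NCD and 127, 133 and 161 on HFD.

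The resistin-like paralog *Retnlg*, a neutrophil gene, went against *Retnla* within the HFD-fed mice, with 0 counts in every NCD-fed mouse and 8, 147 and 376 counts in HFD replicates 1, 2 and 3. No 50-base stretch of *Retnla* occurs in it. The macrophage elastase gene *Mmp12* was at 4.90, 13.1 and 8.67 TMM-scaled CPM on NCD and 771, 77.8 and 75.6 on HFD, highest in HFD replicate 1.

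Eosinophil genes, from the cells that supply interleukin-4 to lean fat, summed to 0.183 to 0.893 TMM-scaled CPM on NCD and 2.77 to 3.35 on HFD. *Ccr3* passed as higher without NCD replicate 1 (3.86, edgeR adjusted p = 0.0247), and *Siglecf* was also higher in every HFD-fed mouse. The other eosinophil genes overlapped between the diets at few counts. *Prg2* had 0, 7 and 24 counts on NCD and 4, 36 and 0 on HFD, and *Il5ra* 2, 6 and 12 on NCD and 3, 5 and 16 on HFD. The 6 genes of T cells and group-2 innate lymphoid cells summed to 259, 29.3 and 8.32 on NCD and 3.35 to 6.50 on HFD, most of it *Gata3*, which was at 254 in NCD replicate 1 and which epithelia also express. Of 4 blood endothelial genes 0 passed in edgeR with all libraries (0 at an unadjusted p under 0.05, 1 in weighted voom), with sums of 216 to 677 on NCD and 680 to 844 on HFD. Peritoneal macrophage genes other than *Timd4* summed to 99.0 to 402 on NCD and 397 to 1388 on HFD, most of it *Lrg1*, and 0 passed in edgeR (2 higher at an unadjusted p under 0.05). That sum mainly follows *Lrg1*, and which cells made it was not tested. *Lrg1* and *Gata6* overlapped between the diets, and *Icam2* and *Prg4* were higher in every HFD-fed mouse. Of the lymphatic and mesothelial lists, *Pdpn* (2.06) and *Msln* (2.22) passed as higher, and 0 of 5 adipocyte genes did (0 at an unadjusted p under 0.05, 1 lower in weighted voom).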
